A study of Mus musculus with 12 samples.

Results

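Across the autosomes, 729 of 449303 bACE-seq regions that held at least 10% 5hmC in Cre- retinas and lost 5hmC in Tet tcKO retinas still carried 50% or more of their Cre- level in the mutant. They made up 0.162% of these regions, all of which the authors had called as different between the genotypes. Sequence whose 5hmC changed too little for such a call is not listed, so the share does not extend to it. The median region of the 729 fell from 18.1% 5hmC in Cre- to 9.70% in Tet tcKO, whereas the median of all 449303 regions fell from 15.8% to 3.66%. The regions were selected on these measured levels, so the levels are given as a description with no test. What the rule did not use is their sequence, their position and their level in whole-genome bisulfite sequencing (WGBS), and these are set beside the same measures over all 449303 regions.

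5-hydroxymethylcytosine (5hmC) is made from 5-methylcytosine (5mC) by the TET enzymes. It is a stable mark in neurons and the first step of active DNA demethylation. Bisulfite sequencing reads 5mC and 5hmC alike. In bACE-seq bisulfite converts unmodified cytosine and protects 5hmC, and the APOBEC deaminase then converts 5mC. The cytosines still read as C are taken as 5hmC, although some of them may have failed to convert. A region that keeps 5hmC when the 3 Tet genes are deleted is therefore read from cytosines that stayed unconverted in the mutant library.

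The libraries were made from genomic DNA of whole retinas of C57 BL/6J mice at postnatal day 21, with 3 Cre- and 3 Tet tcKO libraries for each of the assays, 12 in all. The paper states that retinas of more than 1 animal were pooled per sample, and that DNA from these extractions went into both assays. Cre- animals, which the labels call WT, came from Cre- breeders. Tet tcKO animals carried loxP-flanked Tet1, Tet2 and Tet3 and the Chx10::Cre-GFP transgene, which is active in retinal progenitors and known to be mosaic, and Cre+ animals were in-crossed to give each animal both copies of it. A whole retina also holds vessels, microglia and astrocytes that do not descend from these progenitors. The lists analysed here give 1 mean level per group for each region, so the spread between libraries and the read depth are unknown, no level has an error, and no difference between genotypes was tested. In bulk tissue, fewer cells of a type and less 5hmC per cell cannot be told apart.

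Some of the regions that kept most were runs of a repeated motif that contains CpG. The sequences of 3 of the 5 regions with the highest share kept among those with at least 10 CpGs are shown first, followed by the middle of the region near Gpr180, because they let the repeats be read directly. They are the whole region, or its central 300 bases where it is longer, on the plus strand of GRCm38 (mm10), with the cytosine and guanine of each CpG in capitals, and were chosen for display after their values were seen.
chr14:52643952-52644019: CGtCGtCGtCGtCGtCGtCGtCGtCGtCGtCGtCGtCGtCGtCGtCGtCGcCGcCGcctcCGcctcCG
chr11:109431339-109431428: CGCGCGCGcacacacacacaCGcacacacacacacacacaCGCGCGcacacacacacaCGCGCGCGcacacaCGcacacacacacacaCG
chr16:78116817-78117116: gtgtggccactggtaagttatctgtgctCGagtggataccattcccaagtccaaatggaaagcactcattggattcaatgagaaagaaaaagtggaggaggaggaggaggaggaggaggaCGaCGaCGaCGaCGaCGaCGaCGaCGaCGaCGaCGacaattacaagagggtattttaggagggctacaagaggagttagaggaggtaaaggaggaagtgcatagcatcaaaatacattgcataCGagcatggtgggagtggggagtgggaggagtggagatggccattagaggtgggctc
chr14:118175116-118175415: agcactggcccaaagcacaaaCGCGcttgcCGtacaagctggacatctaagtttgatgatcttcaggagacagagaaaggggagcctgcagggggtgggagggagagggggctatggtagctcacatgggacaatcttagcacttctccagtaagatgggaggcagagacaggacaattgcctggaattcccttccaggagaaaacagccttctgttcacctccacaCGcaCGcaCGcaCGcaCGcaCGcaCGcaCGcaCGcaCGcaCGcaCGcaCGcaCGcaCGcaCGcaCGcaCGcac

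The first is a CGT run in intergenic sequence of chromosome 14. It holds 21 CpGs in 67 bp, and held 69.8% 5hmC in Cre- against 58.6% in Tet tcKO, so that it kept 84.0%. The second lies in an intron of Amz2, a zinc metallopeptidase gene, and alternates CG and CA dinucleotides: its 14 CpGs went from 25.3% to 20.2%, a share kept of 79.98%. The third, intergenic on chromosome 16, has a CGA run inside otherwise mixed sequence, and its 18 CpGs went from 65.3% to 48.3%. The last lies between genes, 11343 bp from Gpr180, and ends in a run of CGCA units: its 45 CpGs went from 21.9% to 11.2%, a share kept of 51.0%.

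Not every such region was a repeat. The region chr4:131034717-131036785, 24243 bp from the non-coding gene A930031H19Rik, held 40 CpGs in 2069 bp, had none of them in a tandem run and kept 79.9% of a Cre- level of 17.6%. Its central 300 bases, shown for contrast, hold 8 scattered CpGs.
chr4:131035601-131035900: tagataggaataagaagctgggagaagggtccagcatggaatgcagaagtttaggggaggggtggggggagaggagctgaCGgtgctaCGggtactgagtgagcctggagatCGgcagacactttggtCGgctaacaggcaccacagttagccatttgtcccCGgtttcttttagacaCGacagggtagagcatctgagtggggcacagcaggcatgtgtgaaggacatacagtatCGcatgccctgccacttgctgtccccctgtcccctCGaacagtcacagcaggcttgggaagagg

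Among these called regions the share kept ran down a steep tail. Of the 449303 regions, 16.9% kept at least 30%, 1.95% kept at least 40%, and the 729 keeping 50% thinned to 89 at 60%, 18 at 70% and 3 at 80%. The middle of the 729 kept 52.8%, with 10% of them under 50.5% and 10% over 61.7%. Most of them therefore lay close to the limit. The number depends on the limits, and 300 regions met them at a Cre- level of at least 20%. With 1 percentage point taken off both levels in the share kept, 364 regions were left. The 10% limit was still applied to the full Cre- level there. Just inside it, among regions with at least 10 CpGs, an intronic region of the cone channel gene Cnga3 kept 50.02% (17.7% to 8.84%), a coding exon of Ttyh3 kept 50.03% (14.8% to 7.38%) and a coding exon of Stat6, a cytokine-activated transcription factor, kept 50.08% (19.4% to 9.71%). Just outside it, a coding exon of Lgi4 kept 49.98% (13.2% to 6.61%), an intron of the growth factor receptor gene Fgfr2 kept 49.954% (17.4% to 8.67%) and an intron of the collagen gene Col18a1 kept 49.954% (10.6% to 5.29%). The 8030 regions keeping 40% to under 50% are used below as the nearest group. The 22624 regions keeping at most 10%, with medians of 13.5% in Cre- and 0.958% in Tet tcKO, stand for the other end.

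**Figure D1:**
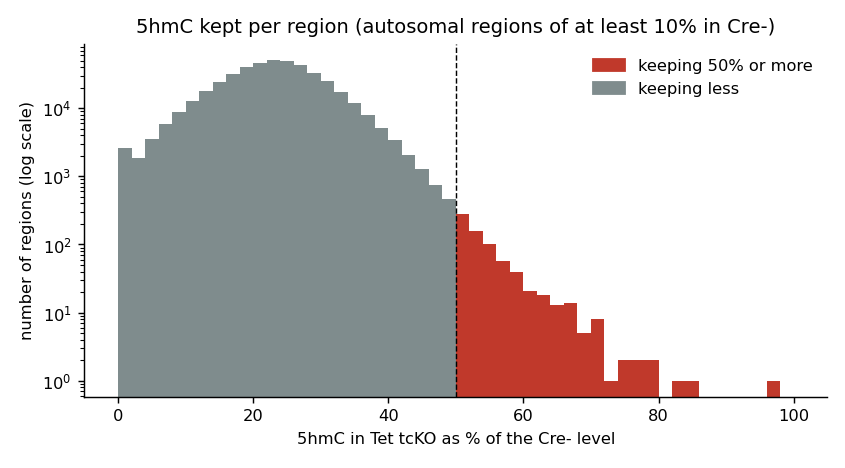
Number of autosomal bACE-seq regions (log scale) by the 5hmC level in Tet tcKO as a percentage of the Cre- level, in bins of 2 points. The median of all regions is 23.1%, and the 729 regions at or right of the dashed line at 50% are in red.

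The rule required a lower level in Tet tcKO, and the loss over the 729 ran from 0.814 to 29.3 percentage points. The median loss was 8.17 points. Since the rule fixes a share and not an amount, the levels spread widely. In Cre-, 10% of the regions lay under 11.6% and 10% over 32.6%. The highest Cre- levels among regions with at least 10 CpGs were 71.9% in an intergenic region of chromosome 14, 56254 bp from Gm47782 (42.6% in Tet tcKO), followed by the CGT run and then by 69.0% in an intron of the non-coding gene Plut (46.0% in Tet tcKO). The CGA run came next, and an intron of Gm36642 was the fifth (59.1% and 30.5%). Only 1137 of all 449303 regions reached 40% in Cre-, and 26 of these, 2.29%, kept 50% or more, against 0.116% of the 198502 regions between 10% and 15%. The Cre- level is part of the rule and of the share kept, and the regions were called on both levels. These shares are therefore a description and no separate result.

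**Figure D2:**
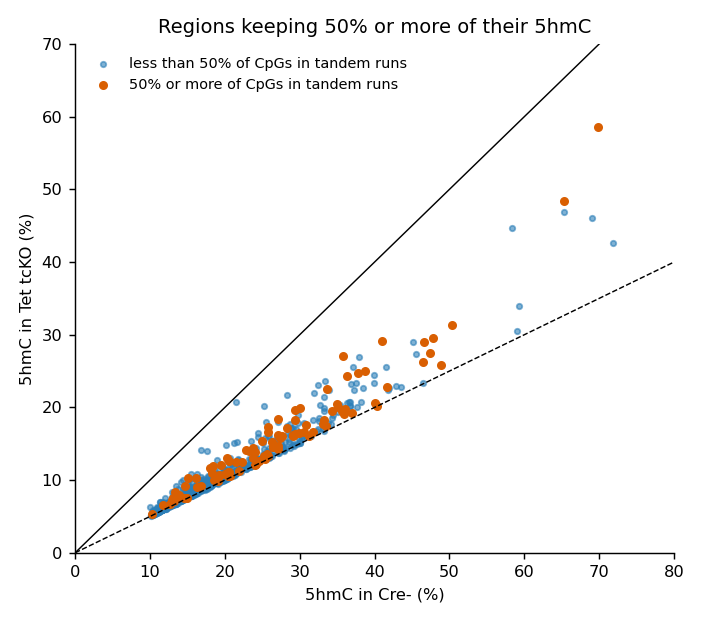
5hmC level in Tet tcKO against that in Cre-, in percent, for each of the 729 regions. The solid line marks equal levels, the dashed line 50%. Orange points are the 99 regions with 50% or more of their CpGs in tandem runs. The CGT run is the uppermost point, at 69.8% and 58.6%.

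The regions were small and dense in CpGs. A median region held 7 CpGs in 159 bp, or 4.59 CpGs per 100 bp. Regions keeping 40% to under 50% had 2.91 per 100 bp over 230 bp, those keeping at most 10% had 1.33 over 421 bp, and all regions 1.58 over 627 bp. The share of regions that kept 50% or more rose with density in each step above 2 CpGs per 100 bp: from 0.0158% (39 of 246105) between 1 and 2, to 0.203% between 2 and 4, 2.35% between 4 and 8, 10.9% between 8 and 16 and 38.9% (21 of 54) at 16 or more. Below 1 CpG per 100 bp it was 0.0252%. The median share kept over all regions moved the same way, from 22.8% at 1 to 2 CpGs per 100 bp to 29.3% at 4 to 8 and 43.4% at 16 or more. By number of CpGs the order was the reverse, with 0.245% of regions of 4 or 5 CpGs and 1 of 11981 regions of 50 or more keeping 50%. The median share kept over all regions went the other way, from 21.0% at 4 or 5 CpGs to 25.3% at 50 or more. Region borders and CpG numbers come from the same calls as the levels and are not independent of them. Fewer CpGs and bases also mean fewer reads behind a mean, and the part of this in the result was not tested.

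**Figure D3:**
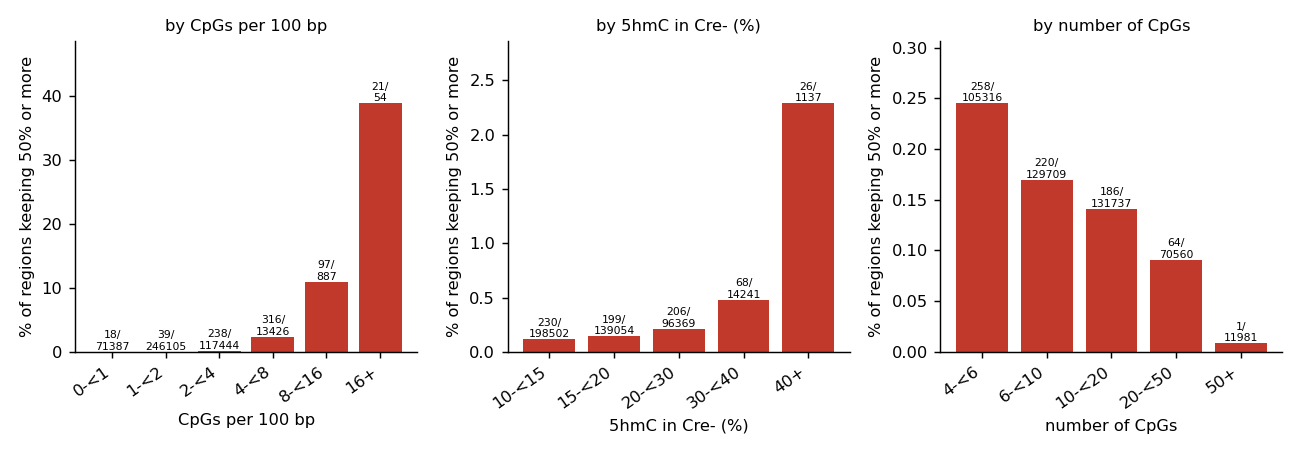
Percentage of autosomal regions of at least 10% in Cre- that kept 50% or more of their 5hmC, by CpGs per 100 bp (left), 5hmC level in Cre- (middle) and number of CpGs (right). The numbers over the bars are regions keeping 50% or more over all regions in the bin. The 3 panels have different linear scales, and the leftmost reaches 38.9% in its last bin. The Cre- level of the middle panel is part of the rule that selected the regions.

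Tandem repeats were frequent among the 729. A tandem run was taken as at least 20 bp of exact copies of a unit of up to 6 bases, so imperfect repeats such as that of Amz2 do not count in full. In 99 of the 729 regions (13.6%) 50% or more of the CpGs lay in such runs, against 1.06% of regions keeping 40% to under 50%, 0.119% of those keeping at most 10% and 0.0986% of all regions. Put the other way, 22.3% of the 443 regions of this kind kept 50% or more, against 0.129% of the 441183 regions with no CpG in a run. The 99 had a median of 25.7% in Cre- and 14.6% in Tet tcKO, higher than the 16.8% and 9.07% of the 570 with no CpG in a run. They were 31 of the 89 regions keeping at least 60%, while 46 of the 89 had no CpG in a run. The pair with the highest shares of all 729, in Celf1 (96.2%) and between genes 17988 bp from Map2 (84.3%), had none either. Within bins of CpG density they were also more frequent among the regions keeping 50%: 9.24% against 0.121% of all regions at 2 to 4 CpGs per 100 bp, and 27.8% against 8.34% at 8 to 16.

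Soft-masked sequence, the repeats and low-complexity stretches that the reference prints in lower case, covered 50% or more of 188 regions. That is 25.8% of the 729, compared with 10.9% of those keeping 40% to under 50%, 13.9% of those keeping at most 10% and 8.54% of all. These 188 kept a median of 55.6%, from 21.2% in Cre- to 12.1% in Tet tcKO. The other 541 kept 52.4%, from 17.0% to 9.20%. GC content was a median of 53.1% over the 729, 50.4% over those keeping 40% to under 50% and 46.1% over all regions.

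Repeated sequence can also occur elsewhere in the genome, where a short read may be placed wrongly. The central 31 bases of 105 of the 729 regions (14.4%) had at least 1 further copy in the genome, on either strand, against 5.75% of all regions, and 75 (10.3%) had at least 10 copies, against 3.73%. The CGT run had 169 copies. The CGA run on chromosome 16 and the Plut region had 1, that is, no copy other than their own. Copies were concentrated in the soft-masked regions, at 50.0% of the 188 against 2.03% of the 541. Without the 105, 624 regions were left, of which 11.2% still had 50% or more of their CpGs in tandem runs. The part of read placement in the levels was not tested.

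Neighbouring regions kept slightly more than those around all regions. The 729 were selected on the share kept, so a lower share in their neighbours is no separate result. The levels come from a smoothed call, so those of adjacent regions need not be independent. Within 5 kb, 706 of the 729 had a neighbouring bACE-seq region, and the 1348 neighbours kept a median of 25.4%, with 80% of them between 14.4% and 35.9%. Neighbours of all regions kept 23.3%, between 13.2% and 33.0%. Of the 1348, 14 (1.04%) were themselves regions keeping 50% or more, against 1151 of 797617 (0.144%) around all regions. The median gap was 645.5 bp, and the neighbours' Cre- level, 15.4%, was close to the 15.004% around all regions. Around the CGT run the only neighbour kept 1.21%, and around the CGA run the neighbours kept 0.725% and 24.4%. A region keeping 50% in an intron of Kit, the stem cell factor receptor, held 37 CpGs at 23.1% and 11.99%, a share of 51.9%, between neighbours keeping 20.3% and 24.0%. The intronic region of the deubiquitinase gene Usp46, which overlaps its antisense gene Usp46os1, held 45 CpGs at 22.9% and 12.04% between neighbours keeping 4.51% and 21.3%. Neighbours of regions keeping at most 10% kept a median of 21.1%.

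**Figure D4:**
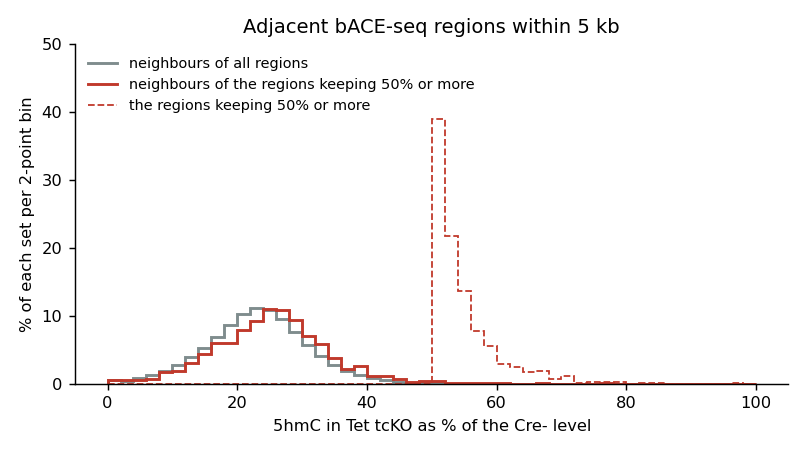
Share of 5hmC kept in adjacent bACE-seq regions within 5 kb, as the percentage of each set per bin of 2 points. Neighbours of the 729 regions (solid red, median 25.4%) lie over the neighbours of all regions (grey, median 23.3%). The 729 themselves (dashed red) start at 50% by the rule.

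With all region sizes together, WGBS regions with a higher level overlapped these regions at a share near that of all regions. Within region sizes the shares differed, in both directions. A WGBS region with a higher level in Tet tcKO overlapped 234 of the 729 (32.1%), beside 28.9% of all regions, 31.4% of those keeping 40% to under 50% and 7.77% of those keeping at most 10%. Over these 234 the WGBS level was a median of 66.6% in Cre- and 82.4% in Tet tcKO, and the rise was a median of 13.6 points, from 3.52 to 57.4. Over all regions on a gain the levels were 63.5% and 81.9%, with a median rise of 16.3 points. The 5hmC level amounted to a median of 28.1% of the WGBS level in Cre- and 12.1% in Tet tcKO over the 234. Over all regions on a gain it amounted to 30.5% and 5.80%. The rule selected on the 5hmC levels in these shares, so the shares are a description and no separate result. The share on a gain varied with region size. A WGBS gain that covered at least 50% of the region was found for 24.7% of the 729 and 9.72% of all regions. Among regions of 4 or 5 CpGs a gain overlapped 31.8% of those keeping 50% and 11.3% of all, and among regions of 20 to 49 CpGs 42.2% and 58.4%. At 6 to under 10 CpGs the shares were 35.9% and 18.1%, and at 10 to under 20 CpGs 24.7% and 32.6%. Among all regions with at least 10 CpGs the shares were 29.1% and 44.2%. Where 50% or more of the CpGs lay in tandem runs, a gain overlapped 15.2% of the 99, near the 12.4% of all regions of that kind.

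A WGBS level that fell in Tet tcKO was rarer, but it overlapped 13 of the 729 (1.78%) beside 0.0808% of all regions and 0.125% of those keeping 40% to under 50%. Their WGBS levels ran from 41.4% to 97.5% in Cre-, and fell by 5.55 to 23.3 points. At the region with most CpGs of all 729, chr9:114579250-114580277, 5600 bp from Cnot10, a subunit gene of the CCR4-NOT deadenylase, 52 CpGs went from 25.7% to 16.1% 5hmC and from 41.4% to 32.0% in WGBS. In an intron of Sipa1l1, a GTPase-activating protein of the synapse, 47 CpGs went from 31.4% to 16.1% 5hmC and from 95.8% to 88.0% in WGBS. Of the 13, 10 had a CpG in a tandem run, where 159 of the 729 (21.8%) and 1.81% of all regions had one. Soft-masked over 50% or more were 6 of the 13, beside 25.8% of the 729 and 8.54% of all regions. At least 10 CpGs were held by 11 of the 13 and by 251 of the 729. In 9 of the 13 the central 31 bases had no further copy, and 14.4% of the 729 and 5.75% of all regions had one. Overlaps that covered at least 50% of the region numbered 5 (0.686%), beside 0.0169% of all regions. The region with the highest share kept of all 729, named after its value was seen, was on a gain: in an intron of Celf1, an RNA-binding protein of splicing and decay, 8 CpGs went from 21.5% to 20.7% 5hmC while WGBS went from 20.6% to 78.0%. There the Cre- 5hmC level exceeded the WGBS level of a region with other borders.

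**Figure D5:**
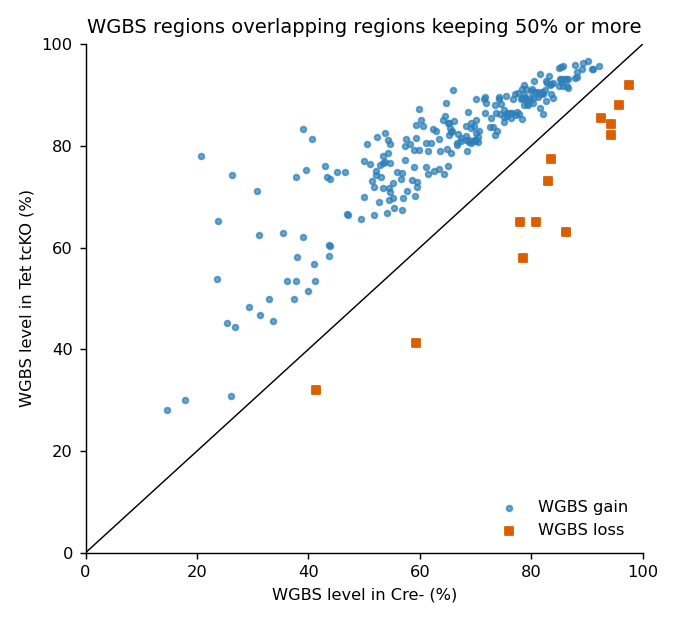
WGBS level (5mC and 5hmC) in Tet tcKO against Cre-, in percent, over the 247 of the 729 regions that overlapped a listed WGBS region. Blue circles are the 234 on a gain (medians 66.6% and 82.4%) and orange squares the 13 on a loss, under the line of equal levels.

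By position the 729 resembled other regions. Their midpoint lay within 2 kb of a transcription start in 61 (8.37%, beside 7.27% of all), in an exon in 46 (6.31% beside 4.35%), in an intron in 377 (51.7% beside 54.1%) and between genes in 245 (33.6% beside 34.2%). Regions keeping at most 10% were between genes more often, at 44.1%, and within 2 kb of a start less often, at 4.04%. At a stricter limit more were intergenic: 48.3% of the 89 keeping at least 60% were intergenic and 2.25% lay within 2 kb of a start. They were scattered over all 19 autosomes, from 16 on chromosome 19 to 61 on chromosome 4, or 0.111% of the regions of chromosome 16 to 0.229% of those of chromosome 10. Of 501 bins of 5 Mb that held a region, 174 had none of them, 125 had 1 and 22 had 5 or more, and no bin had more than 8. The distance from one to the next was a median of 1696390 bp. Only 10 of 710 adjacent pairs lay within 10 kb.

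Sequence motifs of retinal and glial regulators were searched on both strands of the 300 bases around each midpoint. TAATCC, the core motif of CRX, the photoreceptor homeobox factor, was present at 12.2% of the 729 and 16.1% of all regions. AGGAAGT, an ETS motif, was at 6.04% and 7.25%, and TGACTCA, the AP-1 motif, at 4.25% and 5.51%. TGTGGT, the RUNX motif, was at 18.5% and 21.4%, and the E-box CAGCTG at 14.5% and 15.8%. Each share was below that over all regions, and CAGCTG, at 12.04% of regions keeping at most 10% and 18.4% of those keeping 40% to under 50%, lay between those sets. None of these differences was tested. A match is a string of letters and no evidence of binding.

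Of 26481 genes with a region of at least 10% inside the gene or within 5 kb of it, 595 (2.25%) held one or more of the 729. The genes that held them were long, at a median of 69.461 kb against 15.4 kb, and had a median of 29 regions against 8. Among genes with 50 regions or more 14.9% held one, and among genes with fewer than 5 regions 0.203%. A gene as a whole did not stand out for holding one: the share kept over all its CpGs in listed regions was a median of 25.6% for the 595 and 23.8% for all 26481. In 561 there was 1 region, in 32 there were 2, and in only 2 genes more. Gm20388, a predicted gene model of 4435 kb that spans many other genes, held 4 of its 1465 regions, of which the one in an intron shared with the deubiquitinase gene Usp10 was highest, at 24.0% and 13.2%. Fndc3b, a membrane protein with fibronectin domains, held 3 of 140, all intronic: 4 CpGs went from 18.4% to 9.66%, 6 from 15.1% to 7.83% and 4 from 25.1% to 13.6%, and the first lay on a WGBS gain (65.1% to 84.5%).

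Pairs of such regions stood in the same gene in different ways. In an intron of Exoc4, a subunit of the exocyst that tethers secretory vesicles, the regions lay 94 bp apart and kept 76.7% (28.3% to 21.7%) and 61.7% (28.4% to 17.5%), and neither had a CpG in a tandem run. In Plcl1, a phospholipase C-like protein, they lay far apart within introns. One of 22 CpGs kept 58.5% (33.2% to 19.4%) on a WGBS loss, and one of 32 CpGs kept 69.3% (14.4% to 9.96%) on a WGBS gain (59.9% to 79.1%). In Cep85, a centrosome protein, a region of 23 CpGs over coding exon and UTR kept 67.4% (24.4% to 16.4%). The second region counted for Cep85 lay in its flank, in a coding exon of Ubxn11. The phosphatase gene Ppm1h had a 103 bp intronic repeat with all of its 18 CpGs in tandem runs (31.2% to 16.1%). In an intron of Lrmda, a gene of melanocyte differentiation, 17 CpGs went from 40.3% to 20.2%, with 82.4% of them in tandem runs. Chst11, Vps35l and Rasgef1b made up the rest of the 10 genes with most of these regions. Chst11, a chondroitin sulfotransferase, held regions keeping 51.3% and 51.0%, Vps35l, of the retriever complex, 52.1% and 51.8%, and Rasgef1b, a Ras exchange factor, 50.04% and 56.5%. Equal counts were ordered by the number of CpGs.

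Of the other regions with most CpGs, one in an intron of the phosphatase gene Ppm1l held 44 CpGs and went from 32.6% to 18.1%, on a WGBS gain (52.1% to 74.3%). An intronic region of 1700041I07Rik with 44 CpGs went from 22.8% to 11.5%, also on a gain. In a coding exon of Clmp, an adhesion molecule of epithelial junctions, 39 CpGs went from 20.8% to 12.4% while WGBS rose from 75.1% to 84.7%. The last of the 10, between genes on chromosome 12 and 19890 bp from Gm34667, had 35 CpGs at 30.1% and 15.4%.

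Genes of known cell types were looked up from 16 lists. No gene of the lists for microglia (23 genes with a region), astrocytes (5), retinal pigment epithelium (8), rods (14), bipolar cells (10), Muller glia (11), amacrine cells (9), horizontal cells (4), retinal progenitors (11), imprinted genes (24) and mitochondrial complex I (35) held one of the 729. Vascular endothelium had 1 of 19 genes, pericytes and smooth muscle 1 of 11, cones 2 of 10, ganglion cells 3 of 13 and the TET and DNA methylation enzymes 1 of 17. The share over all genes was 2.25%, and over genes with 50 regions or more it was 14.9%. Of the list genes that held one, Mecom, Thrb, Rbpms and Ebf1 had 97, 107, 65 and 143 regions. Cnga3, Cspg4, Sncg and Dnmt1 had 20, 19, 6 and 11. The median share kept per list lay between 21.2% (horizontal cells) and 26.9% (Muller glia), inside the 18.99% to 27.4% that hold the middle 80% of all genes. The median was 24.2% for microglia, 24.1% for endothelium, 23.2% for astrocytes and 23.7% for rods, beside 23.8% for all genes. Pericytes and smooth muscle had 23.0% and retinal pigment epithelium 23.2%. These are levels of whole-retina DNA over those genes, not of the cell types, and do not tell which cells held the 5hmC.

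The 8 genes concerned held 1 region each. In an intron of Mecom, a zinc finger factor used as an endothelial marker, 15 CpGs went from 36.9% to 19.3%, and 86.7% of them lay in tandem runs. In the UTR of Cspg4, the NG2 proteoglycan of pericytes, 6 CpGs went from 11.5% to 6.14% and WGBS from 70.4% to 81.6%. Cnga3 was given above. In an intron of Thrb, the thyroid hormone receptor that directs M-cone opsin expression, 6 CpGs in fully soft-masked sequence went from 14.7% to 7.54%. Among ganglion cell genes, an intron of Ebf1 went from 11.5% to 5.86%, an intron of the RNA-binding protein gene Rbpms from 18.03% to 9.20%, and a coding exon of the synuclein gene Sncg from 14.5% to 7.48%, with WGBS gains over the last pair (55.1% to 69.8% and 64.6% to 85.8%). In a coding exon of Dnmt1, the maintenance DNA methyltransferase, 14 CpGs went from 10.5% to 5.39%. In all 8 genes the share kept lay between 50.02% and 53.2%, near the limit.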

How the data were processed

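Genomic DNA of whole P21 retinas was profiled by WGBS and bACE-seq, with 3 libraries per genotype and assay, grouped by the sample labels. The authors' methods name TrimGalore (0.4.4_dev) for trimming, Bismark (0.18.2) for alignment to mm10, SAMtools (1.15.1) for a mapping quality of 10 or more, Picard in GATK (4.1.3) for duplicates, and MethylDackel (0.6.1) for levels per CpG. Regions came from DSS (2.48.0) with smoothing, a p threshold of 0.01 and minima of 3 CpGs and 50 bp. The deposited levels are fractions of modified cytosine, 1 mean per group, printed here as percent. Because the call used smoothing, a level may draw on CpGs around the region and need not be its plain read fraction. The deposited difference and area statistic hold the authors' comparison and were not used. Levels were assigned to Cre- and Tet tcKO by the order in the authors' list names.

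Regions were taken on autosomes with a Cre- level of at least 10%, a lower Tet tcKO level and a share kept of at least 50%. Sequence came from GRCm38 and genes from GENCODE M21, as protein-coding and lncRNA loci. Both ends of each region fell on a CpG of this reference, and in 98.2% of the 729 the CpG number was that of the reference. A WGBS overlap needed 1 bp. Regions named are the 10 with most CpGs, the 5 with the highest share kept and the 5 with the highest Cre- level (at least 10 CpGs), the 3 nearest the limit on each side (at least 10 CpGs), the 10 genes with most regions and each list gene with one. One region with a high share kept is not reported here. Of the sequences that rule allows, those shown were chosen after seeing them. The members, lists and measures were chosen with earlier results of these data known. Interval and sequence functions were tested on simulated data. Work was done in Python 3.11.15 with pandas 2.3.3, numpy 2.4.6 and numba 0.67.0.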

Additional observations from a re-analysis of the deposited data

How the results depend on the processing

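As reported, there were 729 regions, of which 32.1% overlapped a WGBS gain, 1.78% overlapped a WGBS loss, 8.37% lay in promoters, 58.0% in gene bodies and 33.6% between genes, 25.8% were soft-masked over 50% or more and 13.6% had 50% or more of their CpGs in tandem runs. Genes holding one were 2.25% of genes with a region. At a share kept of at least 60%, 89 regions were left, with 17.98% on a WGBS gain, 3.37% on a WGBS loss, 2.25% in promoters, 49.4% in gene bodies, 48.3% intergenic, 57.3% mostly soft-masked and 34.8% with CpGs mostly in tandem runs, and 0.223% of genes held one. At a Cre- level of at least 20%, 300 regions were left, with 28.7% on a WGBS gain, 3.67% on a WGBS loss, 6.33% in promoters, 35.7% mostly soft-masked and 24.7% with CpGs mostly in tandem runs, and 0.948% of genes held one. Over all regions at that Cre- level, 44.0% overlapped a WGBS gain. At 10 CpGs or more, 251 regions were left, with 4.38% on a WGBS loss, 5.98% in promoters, 53.4% in gene bodies, 40.6% intergenic, 36.7% mostly soft-masked and 27.5% with CpGs mostly in tandem runs, and 0.733% of genes held one. With 1 percentage point subtracted from both levels in the share kept, but not for the Cre- limit, 364 regions were left. Of these, 27.5% were on a WGBS gain, 4.95% in promoters, 36.5% mostly soft-masked and 22.8% with CpGs mostly in tandem runs, and 1.09% of genes held one. Chromosome X added 8 regions under the same limits. When the overlap had to cover at least 50% of the region, 24.7% were on a WGBS gain and 0.686% on a WGBS loss. With promoters of 1 kb each side, 3.70% lay in promoters and 62.0% in gene bodies. Within gene bodies alone, 1.96% of genes held one. Leaving out the regions whose central 31 bases had further copies, an alternative chosen after seeing the data, left 15.1% mostly soft-masked and 2.00% of genes holding one. Of 52 alternative values, the other 14 stayed within 1.5 times the count or within the 95% binomial interval of the share. Most settings change which regions enter, so their number moves by construction. No paired analysis was possible because each group has a single mean per region. The paper estimated failed conversion in bACE-seq from a spiked-in plasmid. Its average was larger than the 1 percentage point subtracted above, and it gives no value per region. Read depth and conversion per region were not analysed here, so neither the precision of each level nor the part of unconverted cytosine in it is known.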

Other observations

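On chromosome X, 8 of 6828 regions of at least 10% in Cre- kept 50% or more (0.117%), where the median over all regions of that chromosome was 17.7%. The 8 went from a median of 31.6% in Cre- to 17.0% in Tet tcKO, had a median of 10.5 CpGs, and none had 50% or more of its CpGs in tandem runs. Among 132935 autosomal regions under 10% in Cre-, 258 (0.194%) kept 50% or more, with medians of 6.92% and 3.78%, and 2 of them had 50% or more of their CpGs in tandem runs.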
